A study of Mus musculus with 8 samples.

Results

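The genes described here make, activate, receive and restrain the signal of transforming growth factor beta (TGF-beta). They are Tgfb1, Furin, Lrrc32, Itgb8, Tgfbr1, Tgfbr2, Tgfbr3, Smad3, Smad7 and Skil, chosen by name, and each matched 1 row among the 18438 genes of the deposited table. All 10 passed the filter on low values. The RNA came from splenic T cells of C57BL/6 mice, sorted on day 7 of EAE (experimental autoimmune encephalomyelitis), a multiple sclerosis model induced with the myelin antigen MOG. The 4 groups of 2 libraries each were IRE1a-/- (KO) Treg, wild-type (WT) Treg, IRE1a-/- (KO) Teff and WT Teff. Treg (regulatory T cells) were sorted as CD4+CD25hiYFP+ and Teff (effector T cells) as CD4+CD25-YFP-. Every group came from EAE mice and none from healthy animals. Ern1 encodes IRE1a, which senses stress in the endoplasmic reticulum and splices Xbp1 mRNA. Which cells of the KO mice lack it, what drives YFP, the age of the mice and whether a library held 1 animal or a pool are not given in the sources used here.

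TGF-beta1 is made as a precursor that the protease furin cuts, after which the mature cytokine stays caged in its latency peptide. On Treg the caged form is held at the cell surface by GARP, the product of Lrrc32, and integrin alphaV-beta8, whose beta chain Itgb8 encodes, sets the cytokine free. Active TGF-beta binds TGFBR2, which recruits TGFBR1 to phosphorylate SMAD2 and SMAD3. SMAD7 blocks the receptor and SnoN, the product of Skil, represses SMAD target genes. In T cells the pathway is known for inducing Foxp3, for restraining T helper 1 responses and for supporting both Treg and T helper 17 cells.

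The deposited values summed to 17504097 to 18751258 normalized reads per library after the authors' scaling, so these sums do not give sequencing depth, which is unknown. Ern1 had 326 and 359 normalized reads in KO Treg, against 377 and 399 in WT Treg, and 458 and 453 in KO Teff, against 559 and 616 in WT Teff. Within each cell type it lay lower in the KO libraries than in the WT libraries. It did not pass limma's test in Treg or in Teff (adjusted p = 0.489 and 0.0902), and a value over the whole gene is no check of a deletion of unstated extent. Foxp3, the lineage factor of Treg, had 89.1 to 117 normalized reads in the 4 Treg libraries, against 0 to 8.29 in the 4 Teff libraries, and Il2ra (CD25) had 8699 to 9012, against 436 to 690.3. Markers of T cells (Cd3d, Cd3e, Cd3g, Cd4, Lck) were high in every library. Whether replicate libraries were separate animals is not stated, so p-values measure only the spread between libraries, which may be technical. In such bulk samples, fewer cells of a type and less RNA per cell cannot be told apart.

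Levels of different genes were compared per length, as normalized reads per 1000 exon bases, counting every annotated exon base of a gene. The order depends on this length. Tgfb1 has 5042 such bases but 2175 in its longest coding transcript, against 4688 and 4576 for Lrrc32 and 8187 and 8092 for Tgfbr2. With the transcript lengths, Tgfb1 would stand first in every group. By exon bases, Lrrc32 stood first in KO Treg with a mean of 1565, above Tgfb1 at 1258, and the libraries of these genes did not overlap. In WT Treg, Tgfb1 led with 1449 and Lrrc32 followed with 681, a level whose libraries overlapped those of Smad7 at 641. By exon bases, the order in Teff was different. Tgfbr2 led in KO Teff with 1011 and in WT Teff with 1046, ahead of Tgfb1 with 819 and 798. Lrrc32 came last in both, with 11.8 per 1000 exon bases in KO Teff and 13.7 in WT Teff. Tgfbr3 came last in both kinds of Treg, at 35.4 in KO and 27.3 in WT.

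**Figure D1:**
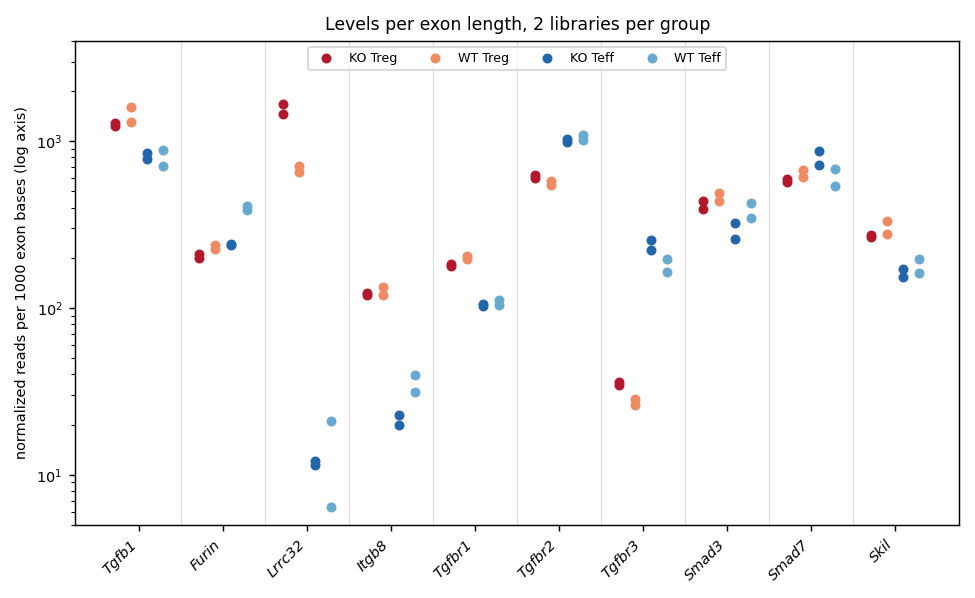
Normalized reads per 1000 exon bases (log axis) for each gene, with 1 point per library and 2 libraries in each of 4 groups. Lrrc32 spans from below 10 to above 1000, with all Treg points far above all Teff points, and Tgfbr3 runs the opposite way.

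The first comparison set Treg against Teff. In KO mice, all 10 genes passed limma's test at an adjusted p below 0.05, 6 higher and 4 lower in Treg, where 26.9% of the 13358 tested genes passed (15.7% higher, 11.2% lower). In WT mice 8 of 10 passed, 5 higher and 3 lower, against 25.1% of all tested genes (13.5% higher, 11.6% lower). The Treg libraries lay fully apart from the Teff libraries for all 10 genes in KO, against 64.9% of tested genes (32.9% higher, 32.1% lower), and for 9 of 10 in WT, against 63.5% (32% higher, 31.5% lower). Ligand, anchor, activating integrin, signalling receptor TGFBR1 and repressor SnoN (Tgfb1, Lrrc32, Itgb8, Tgfbr1 and Skil) were higher in Treg in both genotypes. The ligand-binding receptors Tgfbr2 and Tgfbr3 and the protease gene Furin were lower in Treg in both. The median log2 fold change of Treg over Teff was 0.57 over these genes in KO and 0.52 in WT, against medians of 0 in KO and -0.0016 in WT over all tested genes. The same 8 libraries serve this comparison and the next.

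**Figure D2:**
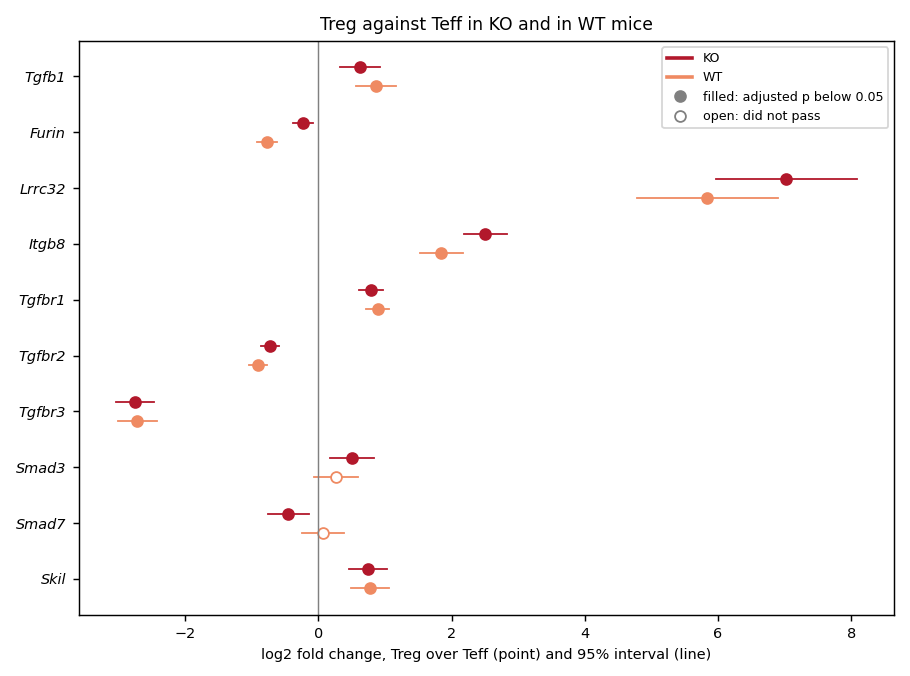
Log2 fold change of Treg over Teff for each gene (point) with its 95% interval from limma (line), KO above WT. Filled points passed at an adjusted p below 0.05, and the open points are those of Smad3 and Smad7 in WT.

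The second comparison set KO against WT within each cell type. In Treg, none of the 10 genes passed limma's test, where 1.45% of tested genes passed (0.674% higher, 0.779% lower). An unadjusted p below 0.05 was reached by 3 of the 10, and by 1964 of all 13358 tested genes. The KO and WT Treg libraries nevertheless did not overlap for 9 of the 10 genes, 3 higher and 6 lower in KO, against 48.7% of all tested genes (22.8% higher, 25.9% lower). In Teff, Furin and Itgb8 fell in KO and the other 8 genes did not pass, against 6.92% of tested genes passing (1.84% higher, 5.08% lower). The libraries of KO and WT Teff did not overlap for 5 genes, 2 higher and 3 lower in KO, against 49.8% of all tested genes (22.4% higher, 27.4% lower). The authors' deposited table likewise called none of these genes in Treg and the same pair in Teff, with log2 fold changes of -0.72 for Furin and -0.74 for Itgb8 (adjusted p = 2.56e-15 and 0.000614). A test of the difference between the KO effect in Treg and that in Teff was passed by none of the 10, where 0.0225% of tested genes passed. Its unadjusted p was below 0.05 for 3 of the 10, and for 1384 of all 13358 tested genes.

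**Figure D3:**
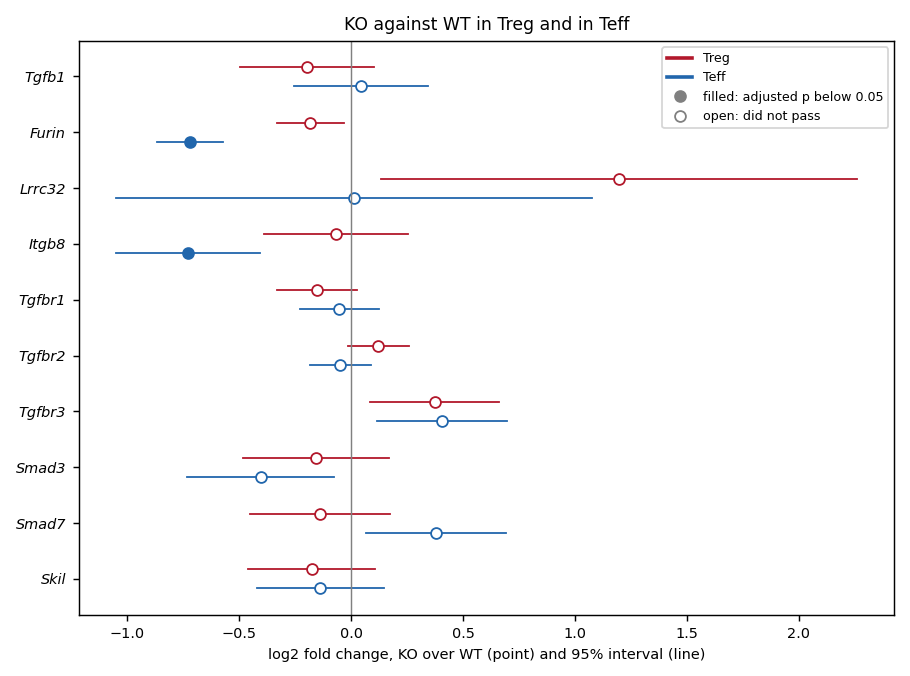
Log2 fold change of KO over WT for each gene (point) with its 95% interval from limma (line), Treg above Teff. Filled points passed at an adjusted p below 0.05 (Furin and Itgb8 in Teff), and the interval of Lrrc32 is the widest in both cell types.

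Tgfb1 (chromosome 7, 25687002 to 25705077, plus strand of GRCm38) encodes the ligand. It had 6190.4 and 6497 normalized reads in KO Treg, 8037 and 6579 in WT Treg, 3963 and 4293 in KO Teff, and 4477 and 3574 in WT Teff. All 4 Treg libraries lay above all 4 Teff libraries. Treg exceeded Teff by a log2 fold change of 0.62 in KO (SE 0.13, adjusted p = 0.0105) and 0.86 in WT (SE 0.13, adjusted p = 0.00261). The call in KO was lost without KO Treg replicate 2 and without KO Teff replicate 1 (adjusted p = 0.0614 and 0.0595). Between genotypes, the log2 fold change of KO over WT was -0.20 in Treg (95% interval -0.50 to 0.10) and 0.04 in Teff (95% interval -0.26 to 0.34), and neither passed (adjusted p = 0.544 and 0.883). The 4 macrophage and monocyte markers in the table (Csf1r, Lyz2, C1qa and C1qb, of 6 listed) summed to 5409 and 5061 normalized reads in KO Treg, 8786 and 8908 in WT Treg, 250.4 and 186 in KO Teff, and 800.4 and 301 in WT Teff. The sums, like Tgfb1, lay higher in Treg than in Teff and lower in KO Treg than in WT Treg, and none of the 4 was at 0 in any library. Their part in the results for Tgfb1, Tgfbr1 and Skil was not tested.

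Furin (chromosome 7, 80388585 to 80405436, minus strand) encodes the protease that cuts the TGF-beta1 precursor. It had 1834 and 1929.6 normalized reads in KO Treg, 2081 and 2190.0 in WT Treg, 2203 and 2222 in KO Teff, and 3532 and 3757 in WT Teff. WT Teff thus stood apart above the other 3 groups, and KO Teff lay close to WT Treg. Furin fell to 2213 ± 13.3 in KO Teff, against 3644 ± 159 in WT Teff (SD, n = 2 each; log2 fold change -0.72, SE 0.06, adjusted p = 0.00189). That call held under all 19 alternative settings, with adjusted p up to 0.0261. In Treg the KO libraries also lay below the WT libraries, by a log2 fold change of -0.18 that did not pass (adjusted p = 0.244). The KO effect was 0.54 less negative in Treg than in Teff on the log2 scale (95% interval 0.33 to 0.75), and this difference did not pass across all genes (limma adjusted p = 0.124). Treg were below Teff by a log2 fold change of -0.23 in KO (adjusted p = 0.0312) and -0.77 in WT (adjusted p = 0.000192). The KO call was lost without any single KO library (adjusted p = 0.0704 to 0.158) and with library totals (adjusted p = 0.0979). The antisense gene Gm44851 overlaps Furin, and without strand information their reads cannot be told apart.

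Lrrc32 (chromosome 7, 98489283 to 98502181, plus strand) encodes GARP, the surface anchor of latent TGF-beta on activated Treg and on platelets. It had 6827 and 7847 normalized reads in KO Treg, 3312 and 3073 in WT Treg, 56.9 and 53.5 in KO Teff, and 30.2 and 98.6 in WT Teff. The KO Treg libraries lay above the WT Treg libraries with a wide gap, and the WT Teff libraries lay on either side of the KO Teff libraries. On the log2(value + 1) scale Treg exceeded Teff by 7.03 in KO, or 130-fold, and by 5.84 in WT, or 57.2-fold (SE 0.45 each, adjusted p = 5.20e-05 and 0.000151). These were the widest differences between cell types among the 10 genes.

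Within Treg, Lrrc32 averaged 7337 ± 722 in KO and 3192 ± 169 in WT (SD, n = 2 each), a log2 fold change of 1.20 (SE 0.45, 95% interval 0.13 to 2.26) or 2.29-fold. This did not pass the test over all 8 libraries (adjusted p = 0.288). The spread used there is shared by all groups, and the SD of the log2 values was 0.142 in KO Treg and 0.0765 in WT Treg, against 0.0614 in KO Teff and 1.18 in WT Teff. The difference passed when Treg libraries alone were fitted (limma adjusted p = 0.0123), without WT Teff replicate 1 (adjusted p = 0.00719) and without WT Teff replicate 2 (adjusted p = 0.00781). Over all 19 alternatives the log2 fold change stayed between 1.10 and 1.30 and the adjusted p between 0.00719 and 0.576. The authors' deposited table gives 1.20 with an adjusted p of 0.271. In Teff the log2 fold change of KO over WT was 0.01 (95% interval -1.05 to 1.07, adjusted p = 0.994). There it turned to -0.83 without WT Teff replicate 1 (adjusted p = 0.0258) and to 0.85 without WT Teff replicate 2 (adjusted p = 0.0355), so its direction rested on 1 library. The KO effect in Treg exceeded that in Teff by 1.19 (95% interval -0.32 to 2.69), which did not pass (adjusted p = 0.601).

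Markers of other cell types stand beside Lrrc32 as follows. The 5 of 6 listed platelet and megakaryocyte markers in the table summed to 44.6 and 71.7 normalized reads in KO Treg, 84.7 and 15.0 in WT Treg, 105 and 81.3 in KO Teff, and 63.4 and 54.4 in WT Teff, mostly from Itga2b. Pf4, which encodes a platelet granule chemokine, was at 0 in 6 of the 8 libraries and at most 1.24. Of the B cell markers, Pax5 had 178 and 162 normalized reads in KO Treg, 5.74 and 2.87 in WT Treg, 9.06 and 168 in KO Teff, and 12.6 and 17.7 in WT Teff. Pax5, like Lrrc32, lay higher in KO Treg than in WT Treg, without passing (log2 fold change 5.06, adjusted p = 0.0899). Cd79b had 186 and 224 in KO Treg, 230.1 and 253 in WT Treg, 22.3 and 18.8 in KO Teff, and 33.6 and 33.7 in WT Teff. Cd79b, like Lrrc32, lay higher in Treg than in Teff, but lower in KO Treg than in WT Treg. Cd79a and Ms4a1 ranged from 11.4 to 54.0 over all libraries. The part of platelets and B cells in the results for Lrrc32 was not tested.

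**Figure D4:**
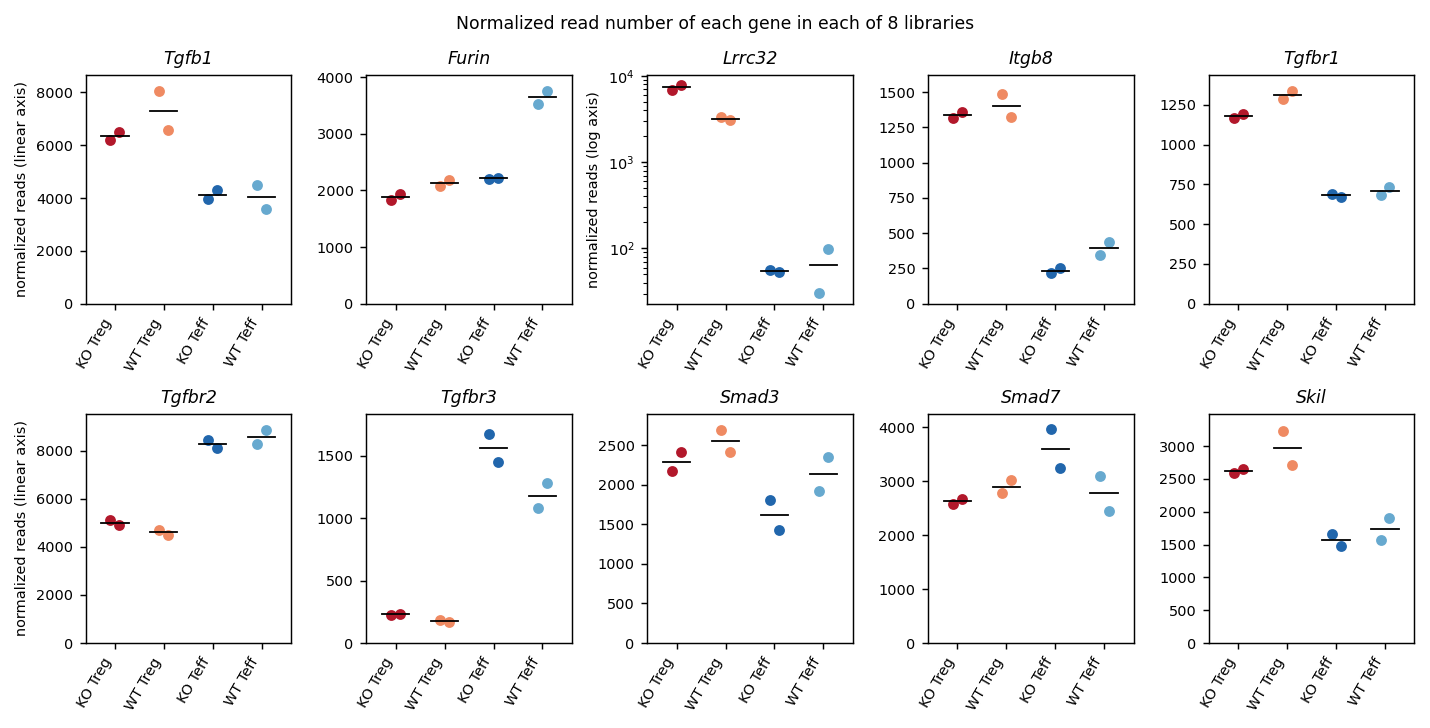
Normalized read number of each gene in each library (points; the bar is the mean of 2), on a log axis for Lrrc32 and on linear axes from 0 for the others. KO Treg stand above WT Treg for Lrrc32, and KO Teff stand below WT Teff for Furin and Itgb8.

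Itgb8 (chromosome 12, 119158022 to 119238802, minus strand) encodes the integrin beta chain that frees TGF-beta from its latent form. It had 1317 and 1357 normalized reads in KO Treg, 1484 and 1322 in WT Treg, 218 and 252 in KO Teff, and 346 and 438 in WT Teff. KO and WT Treg overlapped, while both KO Teff libraries lay below both WT Teff libraries. In Teff, Itgb8 fell to 235 ± 23.9 in KO, against 392 ± 65.7 in WT (SD, n = 2 each; log2 fold change -0.73, SE 0.14, adjusted p = 0.0252). The call was lost without WT Teff replicate 2, without either KO Teff library and without either KO Treg library (adjusted p = 0.0513 to 0.100), and with only the Teff groups fitted (adjusted p = 0.111). In Treg the log2 fold change was -0.07 (95% interval -0.39 to 0.26, adjusted p = 0.878). The KO effect was 0.66 higher in Treg than in Teff (95% interval 0.20 to 1.12), without passing (adjusted p = 0.313). Itgb8 was higher in Treg than in Teff by a log2 fold change of 2.51 in KO and 1.84 in WT (adjusted p = 2.85e-05 and 0.000130). Dendritic cells also express Itgb8, and 5 of 6 listed dendritic cell markers were in the table. Their summed level was 211 and 187 normalized reads in KO Treg, 349 and 371 in WT Treg, 729 and 389 in KO Teff, and 948 and 1610.0 in WT Teff. The sums were thus lower in KO Teff than in WT Teff, as Itgb8 was, and the dendritic cell factor Zbtb46 fell in KO Teff (log2 fold change -1.13, adjusted p = 0.0277). Between cell types the markers went both ways. Zbtb46 was higher in Treg, like Itgb8 (log2 fold change 1.50 in KO and 1.20 in WT, adjusted p = 0.00210 and 0.00671), while Flt3, Itgax, Clec9a and Siglech lay lower in every Treg library than in any Teff library, with Clec9a at 0 in both KO Treg libraries. Their part in the results for Itgb8 was not tested.

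Promoter sequences are shown for Furin and Itgb8 because these genes fell together in KO Teff. The promoter set used here, taken from RefSeq (GRCm38.p6), held 6 of the 10 genes (Tgfb1, Furin, Itgb8, Tgfbr1, Tgfbr2 and Smad3), with 2 starts for Furin and for Tgfbr1. Each runs 5′ to 3′ on the gene's strand, from 250 bases before the annotated start to 50 bases from it on. Capitals mark matches on either strand to CAGAC, a SMAD-binding motif, or TGACGTG, a core bound by XBP1, the factor whose mRNA IRE1a splices.
Furin upstream start, chr7:80405387-80405686, minus strand: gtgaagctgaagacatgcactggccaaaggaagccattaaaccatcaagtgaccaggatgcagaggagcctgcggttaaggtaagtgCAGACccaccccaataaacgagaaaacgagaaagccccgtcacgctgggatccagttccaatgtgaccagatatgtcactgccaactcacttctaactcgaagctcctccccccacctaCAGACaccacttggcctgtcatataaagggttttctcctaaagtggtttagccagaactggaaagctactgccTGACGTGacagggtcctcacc
Furin downstream start, chr7:80402763-80403062, minus strand: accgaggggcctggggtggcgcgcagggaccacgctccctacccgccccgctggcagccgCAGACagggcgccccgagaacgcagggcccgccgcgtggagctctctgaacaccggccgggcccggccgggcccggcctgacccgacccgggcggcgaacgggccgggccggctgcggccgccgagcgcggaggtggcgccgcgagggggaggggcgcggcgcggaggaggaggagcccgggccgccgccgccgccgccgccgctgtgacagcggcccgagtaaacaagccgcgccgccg
Itgb8, chr12:119238227-119238526, minus strand: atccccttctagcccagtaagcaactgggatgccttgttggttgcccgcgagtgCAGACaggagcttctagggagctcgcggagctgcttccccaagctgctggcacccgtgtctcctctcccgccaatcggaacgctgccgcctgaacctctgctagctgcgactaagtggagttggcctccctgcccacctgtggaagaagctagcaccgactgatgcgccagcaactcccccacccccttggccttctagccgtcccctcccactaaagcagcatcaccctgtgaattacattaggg
The upstream Furin promoter held 2 CAGAC matches and 1 TGACGTG match, which began 29 bases downstream of the start. The downstream Furin promoter and the Itgb8 promoter held 1 CAGAC match each. Of 32851 mouse promoters of this length, 49.6% held CAGAC and 2.01% held TGACGTG, so the first motif is common. Single CAGAC matches also lay in the promoters of Tgfbr2 and of the downstream start of Tgfbr1, whose mRNAs did not pass between KO and WT. The AP-1 motif TGANTCA and the STAT motif TTCNNNGAA, found in 7.81% and 8.3% of promoters, had no match in the windows of these 6 genes. The motifs do not overlap each other in these windows. A match of letters is a description and shows no binding.

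Among the receptors, Tgfbr1 (chromosome 4, 47353222 to 47414931, plus strand), the signalling kinase, had 1165 and 1194 normalized reads in KO Treg, 1285 and 1338 in WT Treg, 692 and 671 in KO Teff, and 682 and 733 in WT Teff. Treg exceeded Teff by log2 fold changes of 0.79 in KO and 0.89 in WT (adjusted p = 0.000286 and 0.000229). Tgfbr2 (chromosome 9, 116084293 to 116175360, minus strand), the kinase that binds the ligand, ran the other way. It had 5105 and 4905 in KO Treg, 4709.7 and 4488 in WT Treg, 8452 and 8107 in KO Teff, and 8267 and 8858 in WT Teff. The log2 fold change of Treg over Teff was -0.73 in KO and -0.90 in WT (adjusted p = 0.000120 and 7.14e-05). Levels of these signalling partners therefore leaned in opposite directions, with the Treg and Teff libraries fully apart for both genes.

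Neither kinase receptor gene passed between genotypes. On the log2 scale Tgfbr1 differed by -0.15 in KO Treg (95% interval -0.33 to 0.02) and -0.05 in KO Teff (95% interval -0.23 to 0.12), with adjusted p = 0.422 and 0.745. Tgfbr2 differed by 0.12 in Treg (95% interval -0.01 to 0.26) and -0.05 in Teff (95% interval -0.18 to 0.09), with adjusted p = 0.397 and 0.689.

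Tgfbr3 (chromosome 5, 107106570 to 107289629, minus strand) encodes betaglycan, a co-receptor that presents TGF-beta to TGFBR2. It had 227 and 236 normalized reads in KO Treg, 187 and 170.3 in WT Treg, 1675 and 1455 in KO Teff, and 1081 and 1283 in WT Teff. Treg were below Teff by log2 fold changes of -2.75 in KO and -2.72 in WT (SE 0.12 each, adjusted p = 1.27e-05 and 1.90e-05), the largest fall in Treg among the 10 genes in both genotypes. KO libraries lay above WT libraries in both cell types, with log2 fold changes of 0.37 in Treg and 0.41 in Teff. Neither passed (adjusted p = 0.222 and 0.107), and no alternative brought either past the threshold. The 2 effects differed by -0.03 (95% interval -0.44 to 0.38). Of 4 annotated loci that overlap Tgfbr3, Gm42900, Gm43422 and Gm43423 lie on the same strand, and 1 is a processed pseudogene on the opposite strand.

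Smad3 (chromosome 9, 63646767 to 63757994, minus strand) encodes the transcription factor that the receptors phosphorylate. It had 2172 and 2413 normalized reads in KO Treg, 2694 and 2418 in WT Treg, 1801 and 1431 in KO Teff, and 1925 and 2348 in WT Teff. KO libraries lay below WT libraries in each cell type, narrowly in Treg. The log2 fold change of KO over WT was -0.16 in Treg and -0.40 in Teff (95% interval -0.73 to -0.08), and neither passed (adjusted p = 0.666 and 0.146). Treg exceeded Teff by 0.51 in KO (adjusted p = 0.0325) and by 0.26 in WT, where the test was not passed (adjusted p = 0.220). The KO call was lost without either KO Treg library and without KO Teff replicate 2 (adjusted p = 0.0711 to 0.152).

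Of the inhibitors, Smad7 (chromosome 18, 75367529 to 75395935, plus strand), which TGF-beta itself induces, had 2585 and 2674 normalized reads in KO Treg, 2772 and 3027 in WT Treg, 3969 and 3235 in KO Teff, and 3094 and 2451 in WT Teff. KO lay below WT in Treg and above it in Teff. The log2 fold changes were -0.14 in Treg (95% interval -0.45 to 0.17) and 0.38 in Teff (95% interval 0.07 to 0.69), without passing (adjusted p = 0.691 and 0.151). Their difference of -0.52 (95% interval -0.96 to -0.08) did not pass either (limma adjusted p = 0.399). Treg were below Teff in KO by -0.45 (adjusted p = 0.0440), and in WT the log2 fold change was 0.07 (adjusted p = 0.737). The KO call was lost without any single Treg library, without KO Teff replicate 1 and with library totals (adjusted p = 0.0651 to 0.200).

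Skil (chromosome 3, 31095058 to 31122577, plus strand), which encodes the SMAD repressor SnoN, had 2588 and 2653 normalized reads in KO Treg, 3237 and 2709 in WT Treg, 1659 and 1480.4 in KO Teff, and 1568 and 1898 in WT Teff. All Treg libraries lay above all Teff libraries, by log2 fold changes of 0.74 in KO and 0.78 in WT (adjusted p = 0.00369 and 0.00321). KO over WT was -0.18 in Treg and -0.14 in Teff, without passing (adjusted p = 0.568 and 0.569). Of the inhibitors, Skil was thus higher in Treg in both genotypes, while Smad7 was lower in KO Treg and did not pass in WT.

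The wider pathway was read from 7 lists of 86 other genes, of which 80 were in the table and 70 passed the filter on low values. In KO Treg, 2 of 70 (2.86%) rose and 0 fell, against 1.45% of all tested genes (0.674% higher, 0.779% lower). Of the 70, 15 had an unadjusted p below 0.05, as did 1964 of all 13358 tested genes. Crebbp, a SMAD coactivator, rose by a log2 fold change of 0.54 (adjusted p = 0.0423), and Prf1, which encodes the pore-forming protein perforin, rose by 0.96 (adjusted p = 0.0248). Both calls were lost without any single Treg library and without either WT Teff library (adjusted p = 0.0516 to 0.229). Among the ligands, latency genes, receptors and negative regulators, which had no call in Treg, the genes of smallest p were Tgfb2, Itgb1, Acvr1b and Ppm1a, with log2 fold changes of -2.53, -0.29, 0.39 and -0.49 (adjusted p = 0.216, 0.126, 0.114 and 0.148). The median over the 70 was -0.05, against -0.01 over all tested genes.

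In KO Teff, 11 of 70 fell and 3 rose, against 5.08% lower and 1.84% higher of all tested genes, with a median of -0.22 against -0.02 over all tested genes. Among latency and activation genes 3 of 15 fell and 0 rose. Itgb1, a beta chain that pairs with alphaV among other alpha chains, had 8916 and 8069 normalized reads in KO Teff, against 12913 and 14135 in WT Teff (log2 fold change -0.67, adjusted p = 0.00438). Itgb5, another partner of alphaV, had 15.8 and 20.2 in KO Teff, against 81.4 and 80.5 in WT Teff (log2 fold change -2.12, adjusted p = 0.00754). Nrp1, a receptor that can bind the latency peptide, fell by 0.58 (log2; adjusted p = 0.0144), a call lost without KO Teff replicate 2 (adjusted p = 0.0778). The calls of Itgb1 and Itgb5 held under all 19 alternatives. The macrophage and monocyte marker sums given above were also lower in KO Teff (250.4 and 186) than in WT Teff (800.4 and 301). Their part in the results for Itgb1, Itgb5 and Nrp1 was not tested. Bmp7, 1 of 6 tested genes in the ligand list, which also holds the protease gene Bmp1, fell by 0.75 (adjusted p = 0.0132). The activin receptor gene Acvr1b, 1 of 9 other receptors, rose by 0.52 (adjusted p = 0.0224). The Bmp7 call was lost without KO Teff replicate 2 or WT Teff replicate 2, and that of Acvr1b without these or KO Teff replicate 1. Both were also lost with only the Teff groups fitted (limma adjusted p = 0.0624 and 0.0859). Acvr1b further lost its call without trend and robust shrinkage (limma adjusted p = 0.0527). No SMAD or cofactor of 8 and no negative or ubiquitin regulator of 13 passed in Teff. There 0 and 6 had an unadjusted p below 0.05, as did 2881 of all 13358 tested genes. The smallest p in these lists belonged to Smad4, the shared partner of the receptor-driven SMADs, and to Pmepa1, a feedback inhibitor, with log2 fold changes of -0.12 and -0.37 (adjusted p = 0.398 and 0.0934).

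Genes that TGF-beta is known to induce in T cells did not move one way in KO Teff. Of 10 tested, Ccr8, Ahr and Rora fell, with log2 fold changes of -0.93, -0.76 and -0.60 (adjusted p = 0.00356, 0.00684 and 0.0224), and Foxp3 rose, with 2.06 and 8.29 normalized reads in KO Teff, against 0 in both WT Teff libraries (adjusted p = 0.0419). The Foxp3 call was lost in 11 of 18 alternatives and that of Rora without replicate 2 of KO or of WT Teff. With only the Teff groups fitted, the calls of Ccr8, Ahr and Rora were lost (limma adjusted p = 0.0819, 0.0638 and 0.0866). Rora also lost its call without trend and robust shrinkage (limma adjusted p = 0.0732). Of 10 genes that TGF-beta is known to lower, 4 also fell and 1 rose. Gzmb (granzyme B) had 104 and 86.5 in KO Teff, against 239 and 282 in WT Teff, and Tbx21 (the T helper 1 factor T-bet) had 329 and 313, against 610 and 667 (adjusted p = 0.00303 and 0.00582). Ifng fell by 1.12 (adjusted p = 0.0224), while Prf1 rose by 0.80 (adjusted p = 0.0198). The Ifng and Prf1 calls were lost without any single Teff library, and that of Ifng also without trend and robust shrinkage (limma adjusted p = 0.0604). The 3 of 4 listed NK cell markers in the table (Ncr1, Klrb1c and Eomes, the last also in the list of lowered genes) summed to 525 and 430.3 normalized reads in KO Teff, against 669 and 749 in WT Teff, and to 47.6 to 74.8 over the 4 Treg libraries. Ncr1 was at 0 in KO Teff replicate 1 and in all Treg libraries. The sums were thus lower in KO Teff, as Gzmb, Tbx21 and Ifng were, and their part in these results was not tested. Calls in both lists were thus mostly lower in KO Teff, as were calls over all tested genes (5.08% lower, 1.84% higher). The list medians were -0.35 and -0.80, against -0.02 over all tested genes.

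**Figure D5:**
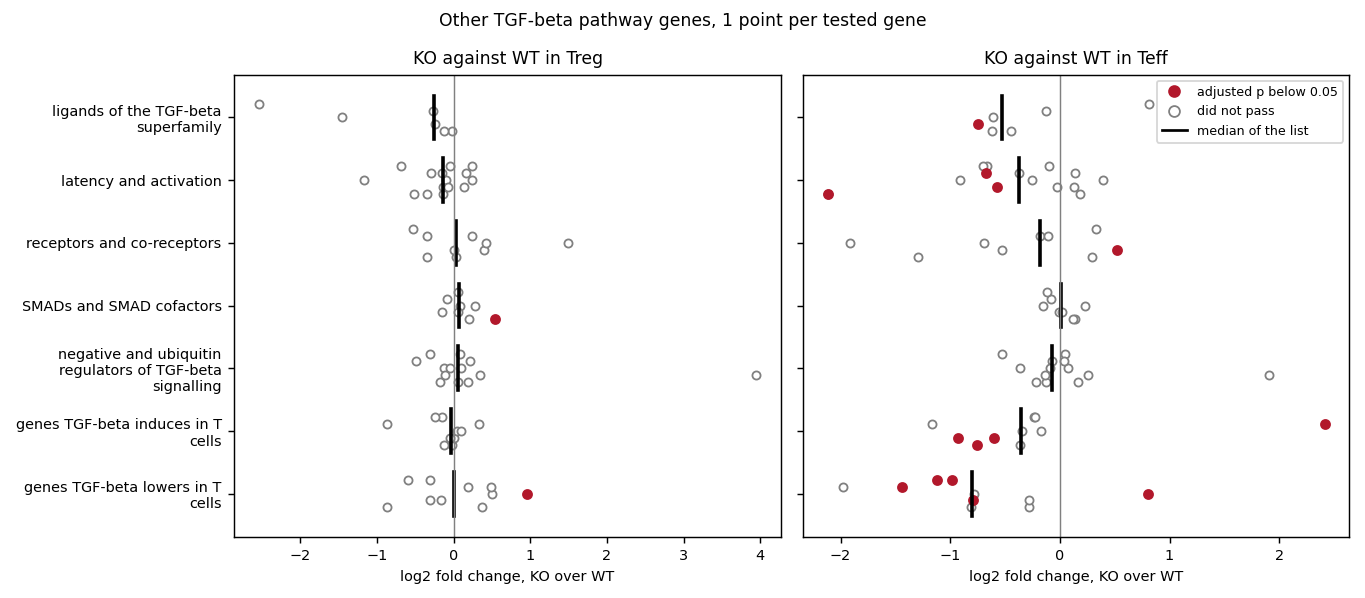
Log2 fold change of KO over WT for the other pathway genes in Treg (left) and Teff (right), with 1 point per tested gene, filled where the adjusted p is below 0.05, and a bar at the median of each list. In Teff 11 points passed below 0 and 3 above it; in Treg 2 passed, both above 0.

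Between cell types, 23 of the 70 were higher and 15 lower in Treg in KO, and 21 higher and 19 lower in WT. Of all tested genes, 26.9% in KO (15.7% higher, 11.2% lower) and 25.1% in WT (13.5% higher, 11.6% lower) passed. Itgav, whose product pairs with that of Itgb8, was higher in Treg in both genotypes, like Itgb8, with log2 fold changes of 1.73 in KO and 1.56 in WT (adjusted p = 3.23e-05 and 6.64e-05). Itgb3, another partner of alphaV, was lower, by -0.77 and -0.83 (adjusted p = 0.000125 and 0.000129). Nrp1 was higher by 2.15 in KO and 1.65 in WT (adjusted p = 1.11e-05 and 4.27e-05). The macrophage and monocyte marker sums given above also lay higher in Treg, and their part in the results for Itgav and Nrp1 was not tested. Itgae, which encodes the TGF-beta-induced integrin chain CD103, had 1471 and 1451 normalized reads in KO Treg and 48.5 and 48.4 in KO Teff, and 1625 and 1629.5 in WT Treg and 45.3 and 72.6 in WT Teff. Of the genes TGF-beta induces, 8 of 10 were higher and 1 lower in Treg in KO, against 15.7% and 11.2% of all tested genes. In WT, 6 were higher and 1 lower, against 13.5% and 11.6%. This list holds Foxp3, which also served above as a check of the Treg label. Of 10 genes TGF-beta lowers, 3 were higher and 5 lower in Treg in KO, and 3 higher and 7 lower in WT, against the same shares. Among the 13 negative regulators, 3 were higher and 2 lower in Treg in each genotype. Pmepa1, Tgif1 and Tgif2 were higher in both, by 1.50, 1.70 and 0.58 in KO and 1.26, 1.47 and 0.54 in WT. The SMAD repressor gene Ski was lower in both (log2 fold changes -0.18 in KO and -0.21 in WT, adjusted p = 0.0407 and 0.0251), Ppm1a was lower in KO (-0.58, adjusted p = 0.0175) and Smurf2 in WT (-0.37, adjusted p = 0.0431). The calls of Ski and Smurf2 were lost with library totals (adjusted p = 0.0863 to 0.222). Among left-out libraries, the Ski call was lost in KO without any Treg or KO Teff library and in WT without either WT Treg library or WT Teff replicate 1. That of Ppm1a was lost without KO Treg replicate 2 or KO Teff replicate 1, and that of Smurf2 without any library but WT Teff replicate 2. The ligand gene Tgfb3 was lower, by -2.27 in KO and -2.76 in WT (adjusted p = 0.000415 and 0.000232). None of the 70 passed the test of the difference between KO effects. Among them 15 had an unadjusted p below 0.05, as did 1384 of all 13358 tested genes.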

How the data were processed

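Per the labels' protocols, polyadenylated RNA was sequenced as 50-base single-end reads on a DNBSEQ instrument, with no stated strand marking or molecular identifiers. The submitters' processing notes name mm10 as the build, DESeq2 1.28.1 under R 4.0.3, Salmon 0.14.1 and Trim Galore 0.4.4. The authors deposited a normalized signal per gene and library, called normalized reads here, and their own log2 fold changes and adjusted p-values of KO over WT. Of all positive values, 21.3% to 23.2% were whole multiples of the commonest step (tolerance 0.02), and of small positive values 54.8% to 57.6% were. At high values a small error in the step exceeds the tolerance. The share over all values therefore cannot show whether they are scaled counts. The deposited values are normalized, and no count model was fitted.

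The test was limma 3.58.1 (R 4.3.3; trended, robust shrinkage) on log2(value + 1), fitted to all 8 libraries with a mean for each group, which leaves 4 residual degrees of freedom. A gene entered when 2 or more libraries reached 10, and calls were made at a Benjamini-Hochberg adjusted p below 0.05, taken per contrast. The pseudocount understates changes of weak genes. All members were named, with up to 4 genes per pathway list and contrast of smallest p among those passing, or 1 where none passed; some genes under this rule are not reported here. Members, lists and motifs were chosen with earlier results of these data known. Coordinates and exon lengths came from GENCODE M21 (GRCm38, also called mm10), promoters from RefSeq. Scaling, pseudocounts, filters, shrinkage, groups fitted, a replicate block and each left-out library were varied. The fit was tested on simulated data.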

Additional observations from a re-analysis of the deposited data

How the results depend on the processing

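Precision rests on 2 libraries per group and on a spread pooled over groups. Of 940 alternative values for the 10 genes in 5 contrasts, 893 kept direction and side of the threshold, 28 lost and 4 gained a call, and 15 turned direction. Scalings moved the median of all genes by less than 0.1 on the log2 scale. The cause of the changes below was not tested, except that fewer libraries or groups give fewer degrees of freedom.

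For KO against WT in Treg, the fit of only the groups compared called 1 of the 10 genes (Lrrc32) and 1 pathway gene, the fit without trend and robust shrinkage 1 pathway gene. In Teff, the fit without trend and robust shrinkage called 1 of the 10 genes, 9 pathway genes and 571 of all genes, and the fit of only the groups compared 1, 7 and 210, against 2, 14 and 924. The difference of effects called 5 genes with library totals, 6 with pseudocount 5, 5 with no filter and 11 without trend and robust shrinkage, against 3.

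Leaving out 1 library at a time gave, in Treg, 0 to 1 of the 10 genes, 0 to 2 pathway genes and 44 to 192 of all genes (194 in the full fit); the group left with 1 library is then assumed to vary like the others. In Teff it gave 1 to 3, 6 to 13 and 347 to 642, and for the difference of effects 0 to 3 of all genes. For Treg against Teff in KO it gave 6 to 10, 30 to 40 and 2351 to 3572 (10, 38 and 3597 in full), and in WT 8 of the 10 genes, 31 to 39 and 2086 to 3315 (8, 40 and 3357 in full).

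Direction turned for some values that were near 0 in the full fit. Lrrc32 in Teff was -0.0048 with pseudocount 5, and Tgfbr3 in the difference of effects was 0.013 with quantile normalization. Left-out libraries gave log2 fold changes of -0.15 to 0.017 for Itgb8 in Treg, -0.12 to 0.21 for Tgfb1 in Teff, -0.83 to 0.85 for Lrrc32 in Teff, and -0.10 to 0.00192 for Tgfbr2 in Teff. They gave -0.16 to 0.090 for Tgfbr3 and -0.18 to 0.10 for Skil in the difference of effects, and -0.095 to 0.24 for Smad7 in Treg against Teff in WT.

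Whether same-numbered libraries share animals is not stated. Deviations of same-numbered libraries correlated at -0.04 to 0.08 between groups, which cannot decide it, since paired libraries may share little variation. With replicate number as a block, KO against WT in Treg called 0 of the 10 genes, 0 pathway genes and 114 of all genes. The block ended 1 call among the 10 genes, that of Smad3 for Treg against Teff in KO (adjusted p = 0.0515), and left 2 of the 10 called in Teff.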

Other observations

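IRE1a cuts some mRNAs at a stem-loop, and transcripts of the 10 genes were searched for CNGCAGN flanked by 4 base pairs of stem (15 bases in all), in the longest coding transcript of each gene in GENCODE M21. Furin held 1 such site and the other 9 genes none, against 3.62% of 12614 tested genes with a coding transcript, and 3.76% of the 3301 whose length lay within 80% to 125% of that of Furin. The site is at bases 3114 to 3128 of the Furin transcript, 5′ to 3′, with the loop in capitals.
Furin stem-loop: caggCTGCAGCcctg
Furin mRNA was lower in KO Teff, as given above. The match shows no cutting, and no other stem length was searched.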
